A study of Mus musculus with 6 samples.

Results

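The genes described here are 39 collagens and core proteins of the extracellular matrix, chosen by name from the 22547 genes in the count table of 4 mouse mammary tumor stages. All 39 had a row in that table. The rule itself uses no measured value, but the genes were chosen with earlier results of these data known. They are the fibrillar collagen chains of types I, III and V, collagens VI, VIII, IX, XII, XIV, XVI and XVII, the basement membrane chains of types IV, XV and XVIII with laminin chains and nidogen, small proteoglycans, elastic fiber proteins, lysyl oxidases and matricellular proteins. RNA was counted as unique molecular identifiers (UMIs, 1 per captured molecule) in single cells, and levels are given as CPM, the UMIs of a gene per 1000000 UMIs of the cells summed.

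The study followed tumors driven by Wnt1 under the MMTV promoter, which is active in mammary epithelium, together with an inducible FGF receptor. Tumors were transplanted, the receptor was switched on with the B/B homodimerizer until growth no longer needed it, and the mice then received NVP-BGJ398, a kinase inhibitor of FGF receptors; the protocol does not say at which point the Primary tumors were taken. The genotype labels were MMTV-Wnt1/iFGRR2 for the Primary library (mice of 8 to 10 weeks), MMTV-Wnt1/iFGRR1 for Dormant (10 to 12 weeks), MMTV-Wnt1/iFGRR4 for Long-term dormant (32 to 34 weeks) and MMTV-Wnt1/iFGRR3 for Recurrent (20 to 22 weeks). All were labelled strain FVB (FVB.rGH-Luc-GFP) and tissue mammary gland. Per the treatment protocol, which is worded alike for every sample, residual tissue was taken after 14 days on NVP-BGJ398 and another 14 days off it, and recurrent tumors grew back in mice then left untreated. Each stage is 1 library, the labels do not give the number of mice in it, and age and stage cannot be told apart. No difference between stages therefore has a replicate check, no test was made, and every interval covers counting error only.

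Dissociated cells were frozen, thawed, sorted as live by DAPI and run on the version 2 droplet kit with 10000 cells targeted. The libraries held 4925 Primary, 3541 Dormant, 6083 Long-term dormant and 5119 Recurrent cells, with 28138696, 14185689, 22355630 and 41259292 UMIs. Between 26 and 50 cell barcodes were shared by each pair of libraries. Cells were grouped into classes by marker genes after clustering without any matrix gene, so class names do not rest on the genes described. Whether the Long-term dormant epithelial cells are tumor cells could not be settled from the labels. The eGFP transcript was found in 1.75% of the basal-like and 1.85% of the luminal-like cells of that library. The shares in basal-like cells were 99.5% in Primary and 90.7% in Dormant, and those in luminal-like cells 99.8% in Primary, 78.4% in Dormant and 98.9% in Recurrent.

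Matrix genes encode the scaffold around cells. Fibroblasts secrete fibrillar collagens as triple helices that lysyl oxidases crosslink into fibers, and small leucine-rich proteoglycans such as decorin set the width and spacing of those fibers. Epithelial, endothelial and mural cells rest on a basement membrane, a sheet of type IV collagen and laminin networks joined by nidogen, which separates mammary ducts from the stroma. Matricellular proteins such as periostin, tenascin C and the thrombospondins signal to cells more than they bear load, and their genes are known for induction in wounds and tumors.

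The cells that held the RNA of these genes differed between libraries. Fibroblast-like cells held 5.73% of the Primary UMIs of the 39 genes, 87.8% of the Dormant, 97.4% of the Long-term dormant and 73.9% of the Recurrent ones. The Primary library had 7 fibroblast-like cells among the 4275 used, against 297 of 3276 in Dormant, 2890 of 5867 in Long-term dormant and 103 of 4628 in Recurrent. In Primary the RNA sat instead in basal-like cells (33.8%), luminal-like cells (30.7%) and 26 pericyte-like or smooth muscle-like cells (18%). The total over all cells of these genes was 19805 UMIs for Primary, 67021 for Dormant, 699312 for Long-term dormant and 50695 for Recurrent. How dissociation and freezing act on the share of each class recovered was not tested.

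**Figure D1:**
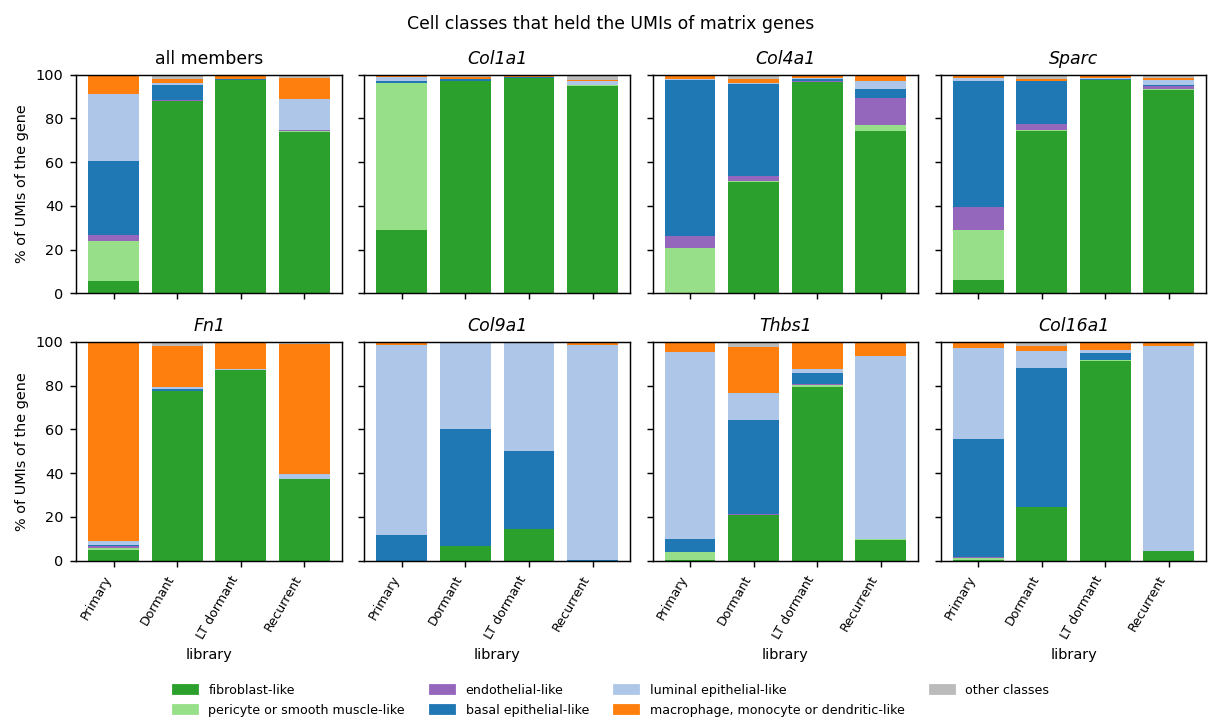
Percentage of the UMIs of all 39 matrix genes together (first panel) and of 7 single genes that each cell class held, by library; each stacked bar is 1 library and sums to 100%. Fibroblast-like cells held most of the UMIs in the Dormant, Long-term dormant and Recurrent libraries, and basal-like, luminal-like and pericyte-like cells most of those in Primary.

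Single genes had other sources. Col1a1, the alpha 1 chain of type I collagen, had 67.4% of its Primary UMIs in pericyte-like cells and 28.8% in the 7 fibroblast-like cells, whereas fibroblast-like cells held 96.9% in Dormant. Col4a1, a chain of the basement membrane network, was basal at 71.3% in Primary and divided in Dormant between fibroblast-like (51%) and basal-like cells (42.1%). Fn1, fibronectin, was held by macrophage-, monocyte- or dendritic-like cells at 90.8% in Primary and 59.2% in Recurrent, where fibroblast-like cells held 37.3%. Myeloid Fn1 was 108 CPM in Primary, 168 CPM in Dormant, 371 CPM in Long-term dormant and 465 CPM in Recurrent.

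A smaller group was largely epithelial. Col9a1, a fibril-associated chain best known from cartilage, had 86.5% of its Primary and 98.7% of its Recurrent UMIs in luminal-like cells. Thbs1, thrombospondin 1, was luminal at 85.4% in Primary and 83.5% in Recurrent, but at 12.7% in Dormant, where basal-like cells held 42.7%. Col17a1, the transmembrane collagen of hemidesmosomes, was basal at 97.2% in Primary and 83.6% in Dormant. Lamb3 and Lama5, laminin chains, were luminal at 94.3% and 95.9% in Recurrent.

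T- or NK-like cells, which should lack most of these genes, were taken as the gauge of free RNA. There the 39 genes took 0.00419% of the UMIs of Primary, 0.0167% of Dormant, 0.154% of Long-term dormant and 0.045% of Recurrent. The shares in fibroblast-like cells were 3.73% in Dormant, 6.08% in Long-term dormant and 5.18% in Recurrent. In basal-like cells they were 0.209% in Primary, 0.33% in Dormant and 1.07% in Long-term dormant. Luminal-like cells gave 0.0553%, 0.0429%, 0.162% and 0.0247% from Primary to Recurrent. The Long-term dormant and Recurrent luminal values were thus close to or below the lymphocyte values of the same libraries. The gauge was not sound for every gene. In Dormant, T- or NK-like cells held 27.9% of the Lamb3 and 11.2% of the Col6a3 UMIs, and their Col6a3 to Col6a2 ratio was 5.40 (95% interval 3.09 to 10.1), against 0.587 in fibroblast-like cells. In Recurrent, 1 T- or NK-like cell gave 97.6% of the Col1a1 and 100% of the Tnc UMIs of that class.

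**Figure D2:**
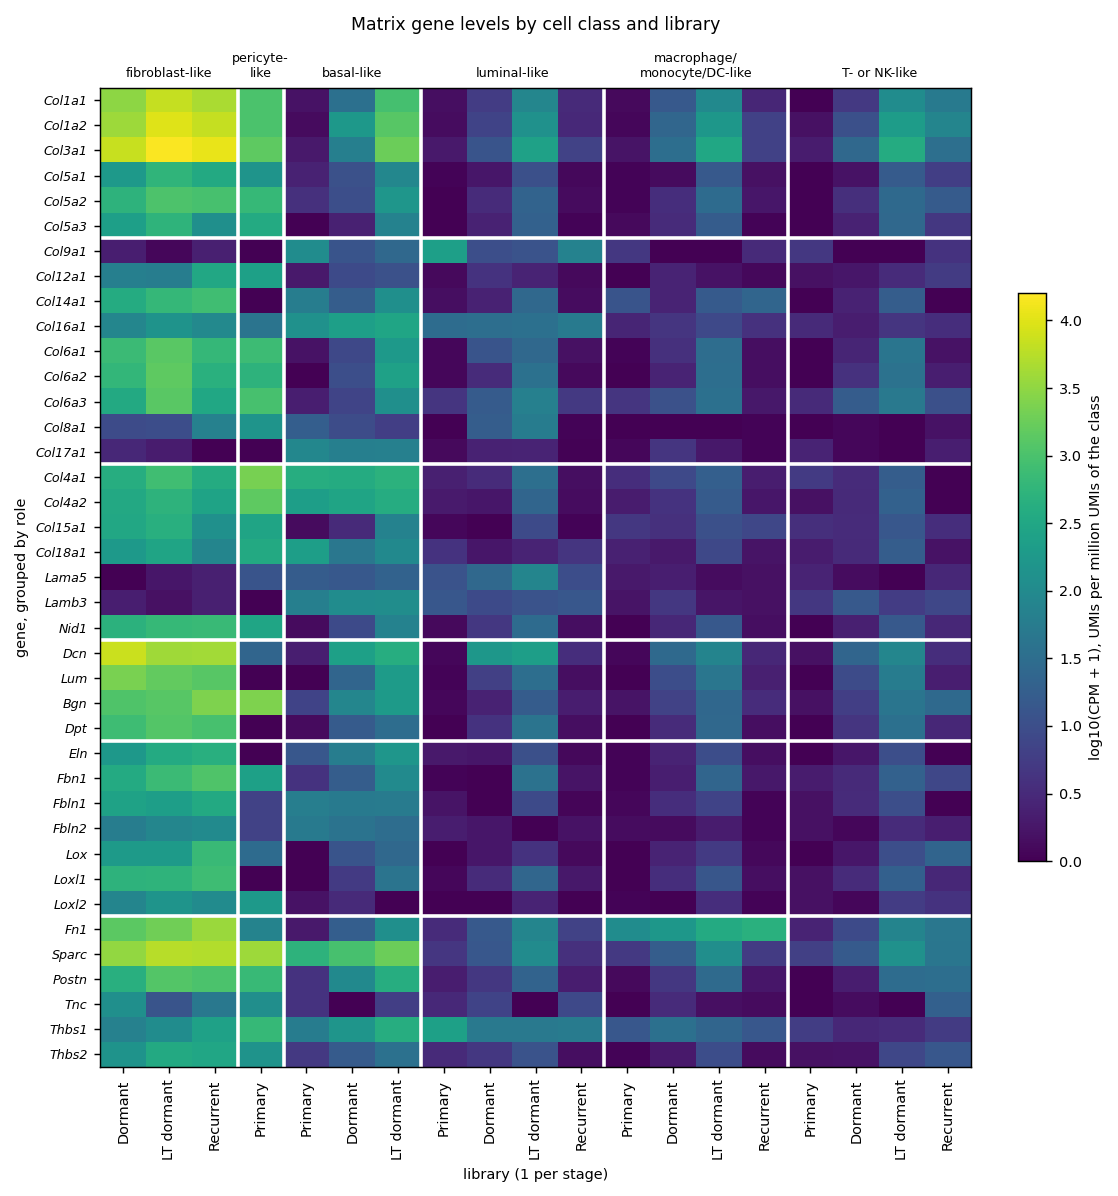
Level of each matrix gene as log10(CPM + 1), with CPM as defined above over the UMIs of the class, in the classes and libraries that had enough cells, grouped by role from fibrillar collagens at the top to matricellular genes at the bottom. Most genes are brightest in the fibroblast-like columns; Col9a1, Col17a1, Lama5 and Lamb3 are brighter in the epithelial ones, and the Long-term dormant columns are brighter than the others also in macrophage-like and T- or NK-like cells.

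Promoter sequence is shown for 5 genes whose RNA lay in different classes: Col3a1 and Postn of fibroblasts, Col17a1 of basal cells, and Col9a1 and Lama5 of epithelium. Promoters of 27 of the 39 genes, in 34 entries, were found in RefSeq on GRCm38.p6, the build of the submitters' mm10 processing; Col1a1, Col5a2, Col12a1, Col14a1, Fn1, Lum, Dcn, Eln, Lox, Loxl1, Loxl2 and Thbs1 had no entry. Each run below is the 120 bases before the outermost annotated start of the gene, read 5′ to 3′ on its own strand, with matches to TATAAA (the core promoter box) or, on either strand, GGGCGG (the box that Sp factors bind) in capitals. CCAAT and TGACTCA (AP-1 site) were searched in the same way on both strands and had no match in these 5 runs.
Col3a1: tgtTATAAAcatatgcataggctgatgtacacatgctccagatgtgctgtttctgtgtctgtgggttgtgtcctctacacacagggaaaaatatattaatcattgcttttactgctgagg
Postn: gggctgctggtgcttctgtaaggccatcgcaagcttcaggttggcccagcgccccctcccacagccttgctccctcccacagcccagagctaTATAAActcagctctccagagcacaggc
Col17a1: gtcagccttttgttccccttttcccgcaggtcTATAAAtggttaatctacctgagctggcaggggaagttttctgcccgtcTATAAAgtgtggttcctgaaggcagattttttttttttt
Col9a1: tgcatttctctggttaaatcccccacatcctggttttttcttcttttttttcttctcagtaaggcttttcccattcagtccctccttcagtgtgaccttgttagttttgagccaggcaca
Lama5: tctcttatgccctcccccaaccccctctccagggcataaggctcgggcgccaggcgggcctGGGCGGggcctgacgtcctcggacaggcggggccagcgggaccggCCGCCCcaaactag

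The runs lie at chr1:45311418-45311537, plus strand for Col3a1, chr3:54360989-54361108, plus strand for Postn, chr19:47692095-47692214, minus strand for Col17a1, chr1:24177490-24177609, plus strand for Col9a1 and chr2:180225860-180225979, minus strand for Lama5. TATAAA began 28 bases before the start of Postn, 117 before that of Col3a1, and both 88 and 39 before that of Col17a1. The Lama5 run held GGGCGG 59 bases and CCGCCC 14 bases before the start, and the Col9a1 run held none of the motifs. In 120 bases before RefSeq starts, TATAAA was found in 3 of the 34 entries (8.82%) and in 6.34% of all 32851 promoters. GGGCGG was in 11 entries (32.4%) against 26.5% of all, CCAAT in 6 (17.6%) against 21.3%, and TGACTCA in 1 (2.94%) against 2.3%. These are matches of letters only, the shares are close to those of all promoters, and 3′ counts do not show which start was used.

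Fibrillar collagen was higher in fibroblast-like cells of the Long-term dormant library than in those of the Dormant library. Of the 35 matrix genes with at least 20 UMIs over both libraries, 12 were at least 2-fold higher and 1 was at least 2-fold lower in Long-term dormant. Over all 11160 genes with that many UMIs, 8.79% were at least 2-fold higher and 8.92% at least 2-fold lower. The median log2 ratio was 0.73 for the 35 genes and -0.02 for all genes. Col9a1, Col17a1, Lama5 and Lamb3 had fewer than 20 UMIs in fibroblast-like cells and were left out of these counts. All 6 chains of collagens I, III and V were among the 12. The count of 12 was 6 when the subsets present in both libraries were weighted equally, and 2 of 33 within cluster 5, where Col1a1 had a log2 ratio of 0.14. Cluster 22 held 126 of the Dormant and 6 of the Long-term dormant fibroblast-like cells. The clusters and subsets are described after the stage comparisons.

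Col1a1 was at 6724 (6676 to 6772) CPM in Long-term dormant and 3042 (2956 to 3129) CPM in Dormant, with 95% intervals in parentheses, a log2 ratio of 1.14 (95% interval 1.10 to 1.19). Its partner Col1a2, the alpha 2 chain, was at 9963 CPM in Long-term dormant and 3799 CPM in Dormant, a log2 ratio of 1.39 (95% interval 1.35 to 1.43). Col3a1, the type III chain of distensible tissues, was at 14762 CPM in Long-term dormant and 6909 CPM in Dormant, a log2 ratio of 1.10. The type V chains, which nucleate type I fibrils, were higher by a log2 ratio of 1.62 (95% interval 1.45 to 1.80) for Col5a1, 1.06 for Col5a2 and 1.23 for Col5a3. Col5a2 lies 24614 bases from Col3a1 on chromosome 1, and the log2 ratios of these neighbors were 1.06 and 1.10.

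The ratio of Col1a1 to Col1a2 UMIs, which 3′ counting lets one compare between cells but not read as protein stoichiometry, was 0.801 (95% interval 0.771 to 0.832) in Dormant, 0.675 (95% interval 0.669 to 0.681) in Long-term dormant and 0.691 (95% interval 0.661 to 0.723) in Recurrent fibroblast-like cells. The Dormant interval did not overlap the others. In Primary pericyte-like cells the ratio was 1.01 (95% interval 0.813 to 1.24).

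Among the microfibril and network collagens, Col6a3 stood highest by ratio, at 1343 CPM in Long-term dormant and 357 CPM in Dormant, a log2 ratio of 1.91 (95% interval 1.79 to 2.03). Type VI collagen forms beaded filaments at the cell surface from 3 chains, and Col6a2 was higher by 1.23 and Col6a1 by 0.89 on the log2 scale. Col12a1, a fibril-surface collagen of load-bearing tissue, did not follow, at 58.4 CPM in Long-term dormant and 63.4 CPM in Dormant, a log2 ratio of -0.12 (95% interval -0.42 to 0.20). The fibril-associated Col14a1 and Col16a1 had log2 ratios of 0.73 and 0.80, and Col8a1, a short-chain collagen of vessel walls, of 0.07.

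Basement membrane genes were higher by less than 2-fold. Col4a1 and Col4a2, which lie head to head on chromosome 8 with annotated starts overlapping by 22 bases at chr8:11312805-11312826 (GRCm38), had log2 ratios of 0.97 and 0.62. Nid1, nidogen 1, had 0.41, Col15a1 0.43 and Col18a1 0.60, the last being the precursor of endostatin.

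None of the small proteoglycans was at least 2-fold higher. Dcn, decorin, was at 4009 (3972 to 4046) CPM in Long-term dormant and 7424 (7291 to 7560.2) CPM in Dormant, a log2 ratio of -0.89. Lum, lumican, its neighbor 46984 bases away on chromosome 10, was at 1541 CPM in Long-term dormant and 2242 CPM in Dormant, a log2 ratio of -0.54. Bgn, biglycan, had 0.21 and Dpt, dermatopontin, 0.64. The ratio of Dcn to Col1a1 UMIs was 2.44 (95% interval 2.36 to 2.52) in Dormant, 0.596 (95% interval 0.589 to 0.603) in Long-term dormant and 0.902 (95% interval 0.858 to 0.947) in Recurrent. Dormant fibroblast-like cells thus had more than 1 decorin UMI per Col1a1 UMI, and those of the other libraries fewer.

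Of the elastic fiber genes, Eln, elastin, was higher by a log2 ratio of 1.10 (95% interval 0.92 to 1.28) and Fbn1, the microfibril protein fibrillin 1, by 1.01 (95% interval 0.88 to 1.13), both close to 2-fold. The crosslinking enzymes Lox and Loxl1 were at log2 ratios of 0.01 and 0.05, and Loxl2 at 0.88. Postn, periostin, a matricellular protein of collagen-rich stroma, was at 1188 CPM in Long-term dormant and 447 CPM in Dormant, a log2 ratio of 1.41 (95% interval 1.30 to 1.52). Thbs2, thrombospondin 2, was higher by 1.35 and Fn1 by 0.52. Tnc, tenascin C, was the 1 gene at least 2-fold lower, at 11.5 CPM in Long-term dormant and 122 CPM in Dormant, but 59.6% of the Dormant UMIs came from 1 cell.

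The Dormant and Long-term dormant fibroblast-like cells also differed in other RNA. UMIs of Ptprc, the pan-leukocyte CD45 gene, were found in 10.4% of Dormant fibroblast-like cells, against 3.98% in Long-term dormant and 1.94% in Recurrent. All 16 macrophage or monocyte markers were detected in Dormant and Long-term dormant and 13 in Recurrent, with summed levels of 3146, 1452 and 2379 CPM. The 10 plasma cell markers summed to 2084 CPM in Dormant, 173 CPM in Long-term dormant and 236 CPM in Recurrent. Median UMIs per fibroblast-like cell were 4636, 3548 and 6371. The part of these in the collagen differences was not tested.

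**Figure D3:**
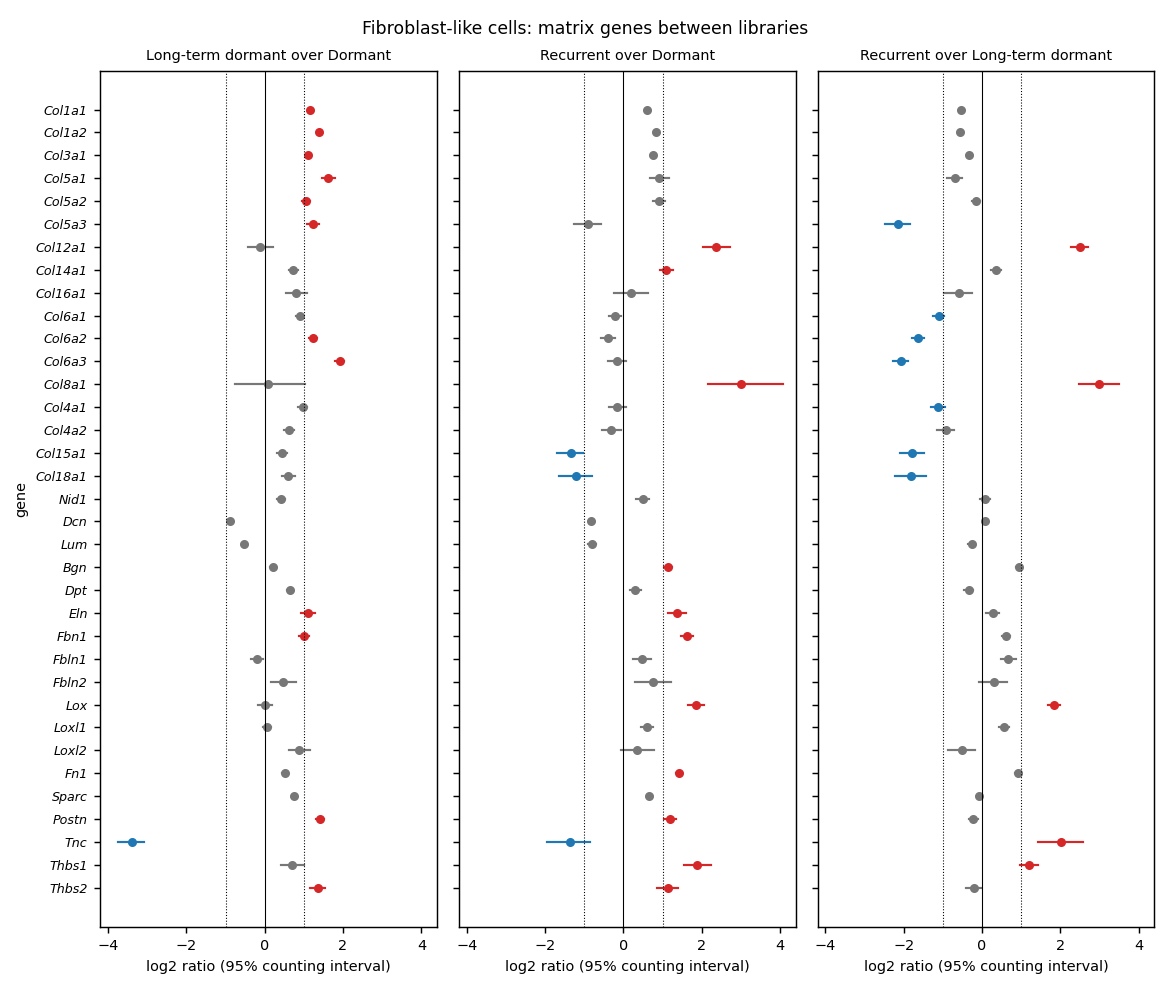
Log2 ratios of the levels of 35 matrix genes in fibroblast-like cells for Long-term dormant over Dormant, Recurrent over Dormant and Recurrent over Long-term dormant, with 95% counting intervals; red points are at least 2-fold higher, blue at least 2-fold lower and gray within 2-fold, and dotted lines mark 2-fold. Fibrillar collagens are red in the left panel only, and Col8a1, Col12a1 and Lox are red in both Recurrent panels.

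The genes higher than in Dormant in the 103 fibroblast-like cells of the Recurrent library overlapped in part with those of Long-term dormant. Eln, Fbn1, Postn and Thbs2 were at least 2-fold above Dormant in both. The fibrillar chains were within 2-fold of Dormant in Recurrent. Their log2 ratios were 0.61 for Col1a1, 0.82 for Col1a2, 0.75 for Col3a1, 0.92 for Col5a1, 0.90 for Col5a2 and -0.92 for Col5a3. Against Dormant, 11 of 35 genes were at least 2-fold higher and 3 at least 2-fold lower, beside 5.18% and 11.2% of all genes, with medians of 0.61 and -0.04 on the log2 scale. Against Long-term dormant, 5 were higher and 7 lower, beside 4.62% and 13.1% of all genes, with medians of -0.22 and -0.05. These comparisons share libraries with each other and with that of the residual stages, so their ratios are not independent.

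Lox, the enzyme that crosslinks collagen and elastin, was at 195 CPM in Dormant, 196 CPM in Long-term dormant and 700.1 CPM in Recurrent. Residual stages were level with each other and the recurrent tumor was above both, with log2 ratios of 1.85 (95% interval 1.64 to 2.06) over Dormant and 1.84 over Long-term dormant. Col12a1 was at 63.4 CPM in Dormant, 58.4 CPM in Long-term dormant and 330.1 CPM in Recurrent, a log2 ratio of 2.37 (95% interval 2.04 to 2.73) over Dormant. Col8a1 showed the same order at a lower level, with 8.24 CPM in Dormant, 8.66 CPM in Long-term dormant and 69 CPM in Recurrent. Fn1 was at 1374 CPM in Dormant, 1965 CPM in Long-term dormant and 3691 CPM in Recurrent, and Fbn1 at 364 CPM in Dormant, 730.2 CPM in Long-term dormant and 1116 CPM in Recurrent, both in ascending order of those stages. Bgn was at 1121 CPM in Dormant, 1297 CPM in Long-term dormant and 2477 CPM in Recurrent, a log2 ratio of 1.14 over Dormant. Thbs1, with 67.8 CPM in Dormant, 109.7 CPM in Long-term dormant and 251 CPM in Recurrent, and Eln, with 172 CPM in Dormant, 368 CPM in Long-term dormant and 446 CPM in Recurrent, were also at least 2-fold above Dormant, as were Postn, Thbs2 and Col14a1, by log2 ratios of 1.19, 1.13 and 1.09. The Col14a1 ratio was -0.15 within cluster 5.

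The type VI chains and Col4a1, Col15a1, Col18a1 and Col5a3 were at least 2-fold lower in Recurrent than in Long-term dormant, and of these only Col15a1 and Col18a1 were so against Dormant. Col6a3 was at 357 CPM in Dormant, 1343 CPM in Long-term dormant and 319 CPM in Recurrent, a log2 ratio of -2.07 (95% interval -2.27 to -1.89) over Long-term dormant. Col6a2 and Col6a1, 85161 bases apart on chromosome 10, were at -1.63 and -1.11, and Col4a1 at -1.13. Over Dormant the log2 ratios were -0.16 (95% interval -0.39 to 0.06) for Col6a3, -0.22 for Col6a1 and -0.15 (95% interval -0.36 to 0.05) for Col4a1. Within cluster 5 over Long-term dormant, Col6a1 was at -0.07, Col6a3 at -0.76, Col4a1 at 0.13 and Col18a1 at 0.50, and 1 member, Col5a3, was at least 2-fold lower. Col15a1 was at 324 CPM in Dormant, 439 CPM in Long-term dormant and 127 CPM in Recurrent, and Col18a1 at 186 CPM in Dormant, 282 CPM in Long-term dormant and 80.1 CPM in Recurrent. Both were at least 2-fold lower than in either residual library, but Col18a1 over Dormant was at a log2 ratio of 0.09 within cluster 1 and 1.41 within cluster 5, the clusters described below. Col5a3 had log2 ratios of -2.15 over Long-term dormant and -0.92 over Dormant. The type I and III chains lay between the residual stages, Col1a1 being at 3042 CPM in Dormant, 6724 CPM in Long-term dormant and 4652 CPM in Recurrent.

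Epithelial RNA stood beside these values. UMIs of eGFP were found in 3.03% of Dormant, 0.208% of Long-term dormant and 19.4% of Recurrent fibroblast-like cells, and 20, 20 and 17 of 20 luminal markers were detected, summing to 521, 190.4 and 1944 CPM in the same order. Elf3, Foxa1 and Ly6d were at 0 in Recurrent. The keratins Krt5 and Krt17, markers of basal cells, were also at 0 there. Pdgfra, the receptor that marks fibroblasts, had a UMI in 64% of Dormant, 63.6% of Long-term dormant and 70.9% of Recurrent cells. Thbs1 and Col18a1 were largely luminal in Recurrent, at 83.5% and 53.9% of their UMIs, and the part of epithelial RNA in their fibroblast levels was not tested.

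The fibroblast-like cells formed 8 subsets when clustered again without matrix genes. F1 had Smpd3, Dmkn, Pi16 and Sema3c among its leading genes, both of the last being markers of adventitial fibroblasts, and held 90 Dormant, 930 Long-term dormant and 6 Recurrent cells. F2, with Fabp4, Olfm2, Adam12 and Lrrc15 among its leading genes, had 6 Dormant and 1002 Long-term dormant cells. F3, led by Angptl1 and Cilp, had 21 and 590, and F4, led by Pgr and Tgm2, had 171 Long-term dormant cells. F5, led by the immunoglobulin genes Igkc and Ighg1 of plasma cells and then by Crabp1, had 148 of its 149 cells in Dormant, and F7, with eGFP in 24% of cells, had 91 of 100 in Recurrent, so either may be its library more than a cell type. F6 was cycling, with Top2a in 47.6% of cells, and F8 had Ptprc UMIs in 50.6%. Matrix genes took 3.36% of UMIs in F1, 9.39% in F2, 6.98% in F3, 3.43% in F4, 4.08% in F5, 4.42% in F6, 5.22% in F7 and 4.71% in F8.

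Within the Long-term dormant library, F2 held the most matrix RNA. Against F1, 20 of 35 genes were at least 2-fold higher in F2 and 2 at least 2-fold lower, beside 9.63% and 5.22% of all genes, and the median log2 ratio was 1.75. The widest gaps were in basement membrane collagens: Col18a1 was at 651 CPM in F2 and 49 CPM in F1, a log2 ratio of 3.73 (95% interval 3.51 to 3.96). Col15a1 was at 899 CPM in F2 and 71.4 CPM in F1, and Col4a1 at 1760.3 CPM in F2 and 202 CPM in F1, with log2 ratios of 3.65 and 3.12. The fibrillar Col1a1 was at 11536 CPM in F2 and 2356 CPM in F1, a log2 ratio of 2.29 (95% interval 2.26 to 2.33), and Col3a1 at 25197 CPM in F2 and 6387 CPM in F1. Lox was at 286 CPM in F2 and 49 CPM in F1, and Postn at 2330.1 CPM in F2 and 674 CPM in F1. Col14a1 and Fn1 ran the other way, Col14a1 at 333 CPM in F2 and 994 CPM in F1 and Fn1 at 1183 CPM in F2 and 3498 CPM in F1.

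F3 was also above F1, with 20 genes higher and 2 lower of 35, beside 6.91% and 5.45% of all genes. Bgn led the proteoglycans there, at 2527 CPM in F3 and 417 CPM in F1, a log2 ratio of 2.60 (95% interval 2.52 to 2.69), and Lox was at 280.5 CPM in F3 and 49 CPM in F1. Fn1 and Fbn1 were lower than in F1, by log2 ratios of -1.60 and -1.10. Between the matrix-rich subsets, F2 was at least 2-fold higher than F3 for 6 genes and lower for 4 of 35, beside 4.86% and 3.29% of all. Postn was at 2330.1 CPM in F2 and 539.8 CPM in F3, and Col18a1 was higher by a log2 ratio of 1.98 (95% interval 1.80 to 2.16). Col8a1, Fbln1 (fibulin 1, an elastic fiber and basement membrane protein), Col14a1 and Eln were lower in F2, by -2.61, -1.91, -1.26 and -1.25.

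**Figure D4:**
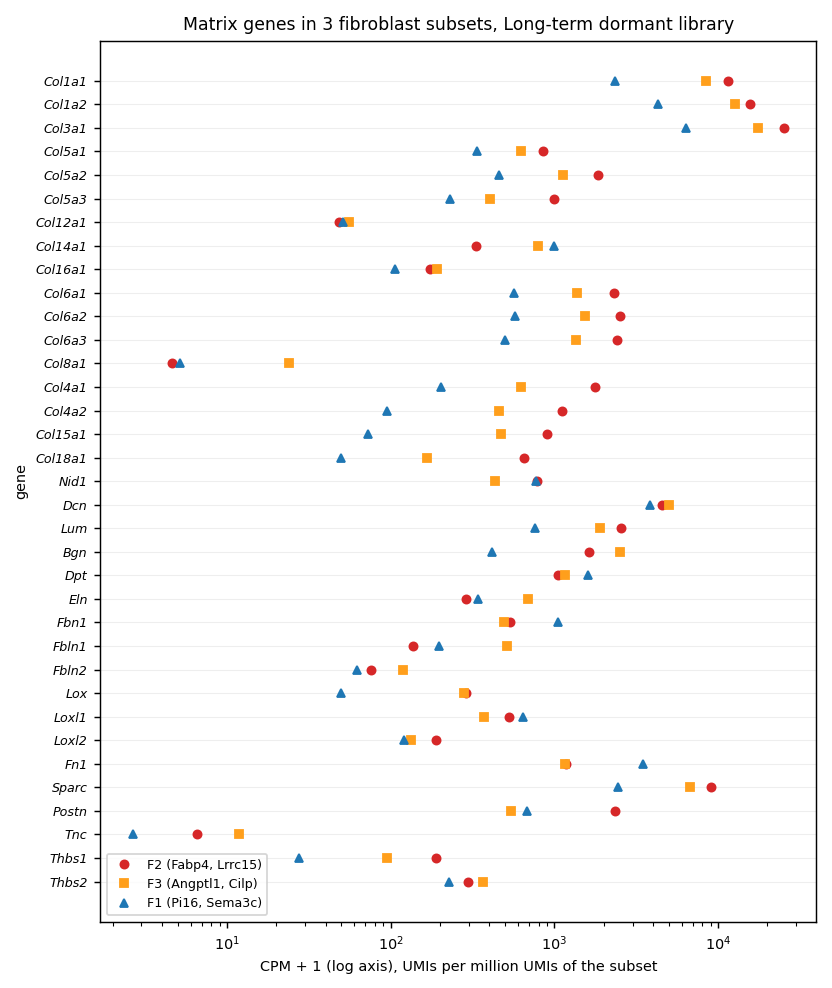
Levels (CPM + 1, log axis) of 35 matrix genes in fibroblast subsets F2, F3 and F1 of the Long-term dormant library, 1 point per subset and gene. Red F2 points lie right of blue F1 points for fibrillar, type VI and basement membrane collagens; F1 is to the right for Col14a1, Fbn1 and Fn1.

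The small subsets differed in single genes. F4 had 4 genes at least 2-fold higher and 2 at least 2-fold lower than F1 of 34, beside 3.34% and 7.43% of all. Thbs2 was the highest of those by level, at 1257 CPM in F4 and 226 CPM in F1, a log2 ratio of 2.48 (95% interval 2.35 to 2.61). The cycling F6 had 3 genes higher and 11 lower than F2 of 35, beside 8.53% and 11.4% of all. Tnc was at 84.3 CPM in F6 and 5.52 CPM in F2 and Col12a1 was higher by a log2 ratio of 1.46, while Col4a2 was lower, at -1.80.

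In the Dormant library, F5 and F1 divided the matrix genes in both directions: of 33 genes, 12 were at least 2-fold higher and 10 at least 2-fold lower in F5, beside 16.6% and 8.81% of all. The part of the plasma cell RNA in F5 in these differences was not tested. Col15a1 was at 566 CPM in F5 and 14.1 CPM in F1, a log2 ratio of 5.24 (95% interval 4.19 to 6.78). Lum was at 3672 CPM in F5 and 659 CPM in F1, and Col18a1, Col4a2 and Bgn were higher by log2 ratios of 4.29, 3.20 and 2.84. Col14a1 was at 101 CPM in F5 and 1022 CPM in F1, and Fn1 at 558 CPM in F5 and 3453 CPM in F1. Dpt and Fbn1 were lower by log2 ratios of -2.73 and -2.60. Fn1 was thus lower than in F1 in F2 and F3 of Long-term dormant and in F5 of Dormant.

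The first clustering of all cells split fibroblasts into cluster 5, which held the Pi16-expressing cells (95 Dormant, 971 Long-term dormant, 52 Recurrent), cluster 1 (76, 1913 and 51) and cluster 22, led by Crabp1 (126 Dormant, 6 Long-term dormant). Cluster 1 was at least 2-fold above cluster 5 for 18 and below it for 6 of 34 genes in Dormant (all genes 11.2% and 7.38%), 21 and 1 of 35 in Long-term dormant (all genes 10.2% and 4.33%), and 9 and 1 of 35 in Recurrent (all genes 5.46% and 6.14%). In cluster 1, 15 of 35 genes were at least 2-fold higher and 1 lower in Long-term dormant than in Dormant, beside 15% and 8.96% of all. Postn was at 1574 CPM in Long-term dormant and 296 CPM in Dormant, and Col6a3 was higher by a log2 ratio of 1.75 (95% interval 1.58 to 1.93). In cluster 5, 2 of 33 were higher and none lower, beside 12.6% and 4.68% of all: Col15a1 and Thbs1, by log2 ratios of 2.45 and 2.03. Subset F1, which is also Pi16-expressing, had 5 of 33 higher and none lower, beside 12.4% and 4.78% of all. The 95% interval of the Col1a1 ratio in cluster 5 was 0.04 to 0.25.

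Of the genes higher in Recurrent than in Dormant, Col12a1, Lox, Bgn, Postn and Thbs1 were at least 2-fold higher within both clusters. Col12a1 in cluster 1 was at 411 CPM in Recurrent and 61.7 CPM in Dormant, and in cluster 5 at 246 CPM in Recurrent and 47.6 CPM in Dormant. Lox in cluster 5 was at 460.0 CPM in Recurrent and 39 CPM in Dormant, a log2 ratio of 3.52 (95% interval 2.86 to 4.35), and Bgn at 1422 and 156 CPM in the same order. Fn1 was at 2764 CPM in Recurrent and 477 CPM in Dormant within cluster 1, but at 4660 CPM in Recurrent and 3495 CPM in Dormant within cluster 5, and Col8a1 had fewer than 20 UMIs in cluster 5 of both libraries. Over Dormant, 10 of 35 genes were higher and 2 lower in cluster 1 (all genes 6.48% and 8.11%), and 9 of 32 higher and none lower in cluster 5 (all genes 7.44% and 4.41%). Over Long-term dormant, 6 of 35 were higher and 7 lower in cluster 1 (all genes 6.04% and 17.2%), and 5 of 34 higher and 1 lower in cluster 5 (all genes 6.39% and 12.1%).

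Related genes were counted in the same way, and the shares of all genes to set beside them were 8.79% higher and 8.92% lower for Long-term dormant over Dormant. In fibroblast-like cells of Long-term dormant over Dormant, 2 of 24 collagen synthesis and processing genes were at least 2-fold higher and none at least 2-fold lower, the count higher being near that share. Adamts2, which trims the procollagen N-terminus, was at 350.5 CPM in Long-term dormant and 155 CPM in Dormant, a log2 ratio of 1.18. Of 17 integrins and other matrix receptors none was higher and 2 were lower, Itga8 by -1.44 and Sdc1, syndecan 1, by -1.40 on the log2 scale. Of 10 further basement membrane genes 2 were higher, among them Hspg2, perlecan, by 1.12, and 1 was lower, Lamc3, a laminin chain, by -1.90. Of 12 other collagens 3 were higher and 4 lower, Col13a1 being at 9.02 CPM in Long-term dormant and 46.9 CPM in Dormant. Of 35 other matrix genes 7 were higher and 4 lower.

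In Recurrent over Long-term dormant, 3 of 24 synthesis genes, 4 of 10 basement membrane genes and 7 of 11 other collagens were at least 2-fold lower, beside 13.1% of all genes, so that the synthesis count was near that share; Hspg2 was lower by -1.49 on the log2 scale. The Recurrent fibroblast-like sum was 724132 UMIs and the Long-term dormant one 11199042, so some genes counted lower were near the floor in Recurrent. Among the other collagens, Col7a1 had 0 UMIs in Recurrent and 57 in Long-term dormant, and Col24a1 had 0 and 20. Their intervals reached log2 ratios of 0.05 and 1.65 and include 0, whereas that of Col13a1, with 0 and 101 UMIs, does not. No synthesis or basement membrane gene was at least 2-fold higher. Fbn2, the fibrillin of developing tissue, was at 55.2 CPM in Recurrent and 6.07 CPM in Long-term dormant, a log2 ratio of 3.17. Over Dormant, 4 of 4 other collagens, 3 of 10 basement membrane genes and 5 of 30 other matrix genes were at least 2-fold lower in Recurrent. Of 23 synthesis genes 2 were higher, and of the 30 other matrix genes 6. The shares of all genes were 5.18% higher and 11.2% lower. Mfap4, a microfibril-associated protein, was higher by 2.02 and P4ha3, a prolyl hydroxylase subunit, by 1.19. Col13a1, with 0 UMIs in Recurrent, was lower by -6.77 and Lamc3 by -2.61.

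In Primary, the type IV chains, Col18a1, Lamb3 and the hemidesmosome gene Col17a1 were at least 2-fold higher in basal-like than in luminal-like cells, while Lama5 was within 2-fold and Nid1 and Col15a1 had 1 UMI each in basal-like cells. Within Primary, 14 of 21 matrix genes were at least 2-fold higher in basal-like than in luminal-like cells and 4 at least 2-fold lower, beside 10.5% and 10.6% of all genes. Col4a1 was at 419 (397 to 443) CPM in basal-like and 1.36 CPM in luminal-like cells, a log2 ratio of 8.19 (95% interval 7.54 to 9.11). Col17a1 and Sparc, a collagen-binding matricellular protein, had log2 ratios of 8.00 and 7.18. Thbs1, Col6a3, Fn1 and Col9a1 were the lower 4, at -2.08, -1.41, -1.21 and -1.08. Col6a3 had 4 basal UMIs (95% interval -3.41 to 0.01) and Fn1 had 3 (95% interval -3.65 to 0.44), and both intervals include 0. Lama5 had basal over luminal log2 ratios of 0.52 in Primary, -0.89 in Dormant and -1.95 in Long-term dormant, the last from 4 basal UMIs. The counts were 21 higher and 1 lower of 28 in Dormant (all genes 11.6% and 12%), and 22 and 2 of 29 in Long-term dormant (all genes 13.1% and 15.4%). Thbs1 changed sides, with basal over luminal log2 ratios of -2.08 in Primary, 1.64 in Dormant and 3.03 in Long-term dormant.

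Several genes stayed within 2-fold between these stages in basal-like cells. Col4a1 was at 419 CPM in Primary, 386 CPM in Dormant and 503 CPM in Long-term dormant. Col17a1 was at 87.6 CPM in Primary, 65.2 CPM in Dormant and 66 CPM in Long-term dormant, and Lama5 at 15.7 CPM in Primary, 13.5 CPM in Dormant and 20.3 CPM in Long-term dormant. Fbln1 and Fbln2, fibulins 1 and 2, were at 61.7, 52.5 and 55.9 CPM and at 50.1, 39 and 30.5 CPM in the same order. The log2 ratio of Dormant over Primary was -0.12 (95% interval -0.27 to 0.02) for Col4a1 and -0.43 (95% interval -0.78 to -0.08) for Col17a1. Col4a1 to Col4a2 UMIs stood at 1.85 (95% interval 1.69 to 2.03) in Primary, 1.35 (95% interval 1.18 to 1.54) in Dormant and 1.27 (95% interval 0.934 to 1.73) in Long-term dormant basal-like cells, and the Primary interval did not overlap the Dormant one.

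Of 27 matrix genes with at least 20 UMIs, 14 were at least 2-fold higher and 3 at least 2-fold lower in Dormant than in Primary basal-like cells, beside 10.8% and 15.4% of all genes. The classes came from different clusters, since 435 of the 439 Primary cells were in cluster 13 and 171 of the 182 Dormant and 54 of the 57 Long-term dormant cells in cluster 18. Col9a1 was at 109 CPM in Primary, 11.3 CPM in Dormant and 25.4 CPM in Long-term dormant, a log2 ratio of -3.24 (95% interval -4.09 to -2.54) for Dormant over Primary. Col18a1 was at 228 CPM in Primary, 46.1 CPM in Dormant and 96.5 CPM in Long-term dormant, and Col14a1 at 58.9 CPM in Primary, 16.3 CPM in Dormant and 122 CPM in Long-term dormant. All 3 were below Primary in Dormant, and Col14a1 alone of them was above Primary in Long-term dormant.

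Among the higher genes, Thbs1 was at 57.3 CPM in Primary, 155 CPM in Dormant and 406 CPM in Long-term dormant, a log2 ratio of 1.43 (95% interval 1.15 to 1.73) for Dormant over Primary. Eln was at 12.8 CPM in Primary, 60.3 CPM in Dormant and 158 CPM in Long-term dormant. Sparc was within 2-fold from stage to stage, at 523 CPM in Primary, 958 CPM in Dormant and 1788 CPM in Long-term dormant, beside a T- or NK-like level of 131 CPM in Long-term dormant. Col1a2 was at 0.313 CPM in Primary, 169 CPM in Dormant and 1296 CPM in Long-term dormant, from 1 UMI in Primary, with a UMI in 56.6% of Dormant basal-like cells. The T- or NK-like level of Col1a2 was 9.66 CPM in Dormant and 206 CPM in Long-term dormant. Dcn was at 1.25 CPM in Primary, 241 CPM in Dormant and 406 CPM in Long-term dormant, beside 22.8 CPM in Dormant and 83.7 CPM in Long-term dormant T- or NK-like cells.

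The proportions of collagen RNA in basal-like and fibroblast-like cells differed for 1 pair of chains in Dormant. Dormant basal-like cells had a Col1a1 to Col1a2 ratio of 0.205 (95% interval 0.148 to 0.28), against 0.801 (95% interval 0.771 to 0.832) in Dormant fibroblast-like cells and 0.42 (95% interval 0.24 to 0.712) in Dormant T- or NK-like cells. In Long-term dormant it was 0.714 (95% interval 0.587 to 0.867) in basal-like and 0.675 in fibroblast-like cells, which overlap. The Dormant ratio of Col3a1 to Col1a1 was 1.86 (95% interval 1.30 to 2.68) in basal-like and 2.27 in fibroblast-like cells, which overlap too. Col3a1 was at 64.5 CPM in Dormant basal-like cells, with 63.7% of its UMIs in 1 cell, beside 25.5 CPM in T- or NK-like cells. In Long-term dormant, 1 cell gave 45.1% of the Col1a2, 41.2% of the Col1a1 and 31.3% of the Col3a1 UMIs of 57 basal-like cells.

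Long-term dormant basal-like cells had 22 of 32 genes at least 2-fold higher than Dormant ones and none at least 2-fold lower, beside 11.1% and 16.2% of all genes. The share of matrix UMIs was also higher in T- or NK-like cells, at 0.154% in Long-term dormant and 0.0167% in Dormant. In basal-like cells it was 1.07% and 0.33%. Of the higher genes only Dpt was below the Long-term dormant T- or NK-like level, at 30.5 CPM beside 34.4 CPM, and Fn1 was at 122 CPM beside 78 CPM. Sparc and Postn were higher by log2 ratios of 0.90 (95% interval 0.73 to 1.07) and 2.10 (95% interval 1.70 to 2.52). Per basal-like cell, the median depth was 6361 UMIs in the Primary library, 5726 in the Dormant and 3176 in the Long-term dormant one. The fibroblast marker list, 11 of 12 markers detected in Primary (Clec3b at 0) and 12 in the other libraries, summed to 422 CPM in Primary, 1036 in Dormant and 2027 in Long-term dormant. The basal list itself, with all 16 markers detected in each, summed to 6593, 8925 and 14328 CPM. All 14 T cell markers were detected in Dormant, at 549 CPM, against 12 in Primary at 63.2 CPM and 9 in Long-term dormant at 178 CPM. Ptprc UMIs were found in 2.05% of Primary, 19.2% of Dormant and 3.51% of Long-term dormant basal-like cells. Those of Epcam, an epithelial gene, were found in 79.3%, 68.1% and 26.3% in the same order. Without cells that had a Ptprc or Pdgfra UMI, 8 of 21 genes were at least 2-fold higher in Dormant than in Primary. In Long-term dormant over Dormant 12 of 24 were. With all cells the counts were 14 of 27 and 22 of 32, so fewer genes had 20 UMIs without those cells. The shares of all genes without those cells are not given here. Since 1.75% of the Long-term dormant cells had eGFP, no value is given for eGFP-positive cells there.

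**Figure D5:**
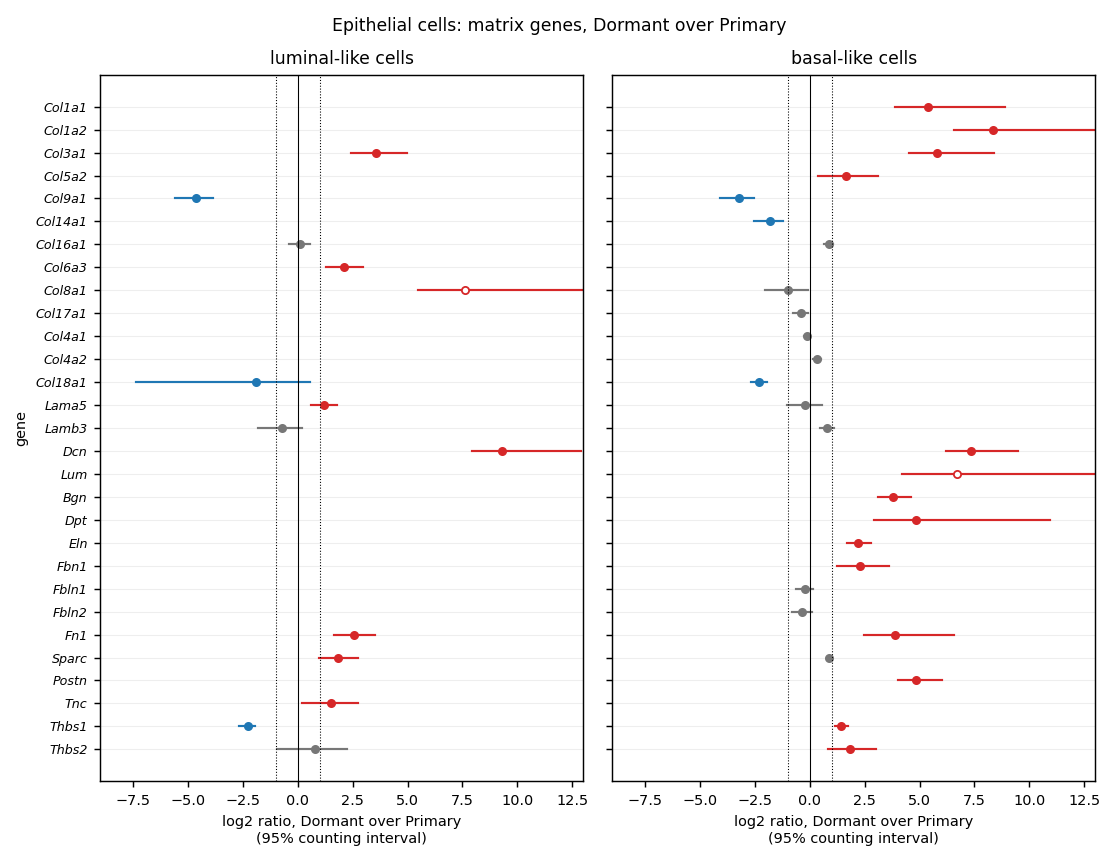
Log2 ratios of matrix gene levels, Dormant over Primary, in luminal-like cells (left) and basal-like cells (right) with 95% counting intervals; red is at least 2-fold higher, blue at least 2-fold lower, gray within 2-fold, open points have no UMI in Primary, and intervals that run past the axis are cut off. Col9a1 is blue in both panels, and Thbs1 is blue in luminal-like and red in basal-like cells.

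Col9a1, Thbs1 and Lama5 were the matrix genes with most of their Primary RNA in luminal-like cells. Col9a1 was at 231 CPM in Primary, 9.17 CPM in Dormant, 11 CPM in Long-term dormant and 72.3 CPM in Recurrent. Its log2 ratio was -4.64 (95% interval -5.61 to -3.85) for Dormant and -1.67 (95% interval -1.76 to -1.59) for Recurrent over Primary. After each cell was thinned to 1000 UMIs, 19.3% of Primary, 0% of Dormant, 0% of Long-term dormant and 5.64% of Recurrent luminal-like cells had a UMI, against 57.5%, 8%, 6.48% and 35.8% before thinning. In T- or NK-like cells, at median depths of 2021 UMIs in Primary and 2922 in Recurrent, the unthinned shares were 0.975% and 1.06%. Median depths of the luminal-like cells were 5644 UMIs for Primary, 8499 for Dormant, 5332 for Long-term dormant and 9514 for Recurrent.

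Cluster 2 held 1327 of the 1666 Primary and 62 of the 125 Dormant luminal-like cells, and cluster 0 held 2117 of the 2645 Recurrent ones. Within cluster 2, Col9a1 was at 239.5 CPM in Primary, 14.1 CPM in Dormant and 30.2 CPM in Recurrent. In cluster 0 it was at 69.4 CPM in Recurrent and 108 CPM in Primary, in cluster 14 at 90.6 and 229 CPM, and in cluster 21 at 137 and 262 CPM in the same order. Col9a1 was thus below Primary in each of these clusters. Its partner chain Col9a2 was at 17.6 CPM in Dormant and 74.6 CPM in Primary, and at 19.9 CPM in Recurrent. Plod1, a lysyl hydroxylase that modifies collagen chains, was at 3.06 CPM in Dormant and 68.1 CPM in Primary, a log2 ratio of -4.44. Related genes did not all fall in Dormant over Primary luminal-like cells. Of 7 other collagens 5 were at least 2-fold lower and none higher. Of 16 synthesis genes 3 were higher and 5 lower, and of 11 other matrix genes 4 were higher and 1 lower. The shares of all genes were 10.1% higher and 11.3% lower.

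Thbs1 was at 242 CPM in Primary, 49.7 CPM in Dormant, 48.7 CPM in Long-term dormant and 55.8 CPM in Recurrent, with log2 ratios of -2.28 (95% interval -2.66 to -1.93) for Dormant and -2.12 (95% interval -2.21 to -2.03) for Recurrent over Primary. In cluster 2 it was at 294 CPM in Primary, 47.5 CPM in Dormant and 99.5 CPM in Recurrent. Col16a1 was steadier, at 29.5 CPM in Primary, 31.3 CPM in Dormant, 34.6 CPM in Long-term dormant and 51.7 CPM in Recurrent, and Lamb3 was at 12.6 CPM in Primary, 7.64 CPM in Dormant, 11 CPM in Long-term dormant and 12.9 CPM in Recurrent. The T- or NK-like levels of Lamb3 were 3.72 CPM in Primary, 13.9 CPM in Dormant, 4.59 CPM in Long-term dormant and 6.92 CPM in Recurrent, and the Dormant luminal value was below that of Dormant T- or NK-like cells. Lama5, a laminin chain of mature epithelial basement membrane, was at 10.9 CPM in Primary, 25.2 CPM in Dormant, 81.7 CPM in Long-term dormant and 8.94 CPM in Recurrent, with the Long-term dormant value mostly from cluster 20 (66 of 108 cells), where it was 119 CPM. Tnc was at 7.33 CPM in Recurrent and 2.09 CPM in Primary, beside T- or NK-like levels of 18.3 CPM, from 1 cell, in Recurrent and 0 CPM in Primary. It was higher in cluster 21, at 56.3 CPM in Recurrent and 40.7 CPM in Primary.

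Stromal genes were near 0 in Primary luminal-like cells, and in Dormant ones several were near or below the T- or NK-like level. In Dormant, Col1a2 was at 6.11 CPM in luminal-like cells and 9.66 CPM in T- or NK-like cells, Col3a1 at 11.5 CPM in luminal-like and 25.5 CPM in T- or NK-like cells, and Lum at 5.35 CPM in luminal-like and 8.12 CPM in T- or NK-like cells. Dcn and Col8a1 were above it. Dcn was at 0.182 CPM in Primary, 165 CPM in Dormant, 225 CPM in Long-term dormant and 2.6 CPM in Recurrent. In Dormant, the 98 cells with an eGFP UMI had 12.6 CPM and the 27 without one 1045 CPM, beside 22.8 CPM in T- or NK-like cells, and 36.1% of the UMIs came from 1 cell. Of these cells 49 were in cluster 20, where Dcn was at 552 CPM, against 7.7 CPM in cluster 2. Col8a1 was at 0 CPM in Primary, 16 CPM in Dormant, 56.6 CPM in Long-term dormant and 0.105 CPM in Recurrent, above the T- or NK-like levels of 0.193 CPM in Dormant and 0 CPM in Long-term dormant. Col1a1, at 0.455 CPM in Primary, 4.59 CPM in Dormant, 84.9 CPM in Long-term dormant and 2.17 CPM in Recurrent, stood beside T- or NK-like levels of 4.06 CPM in Dormant and 110.1 CPM in Long-term dormant.

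By count, 8 of 14 matrix genes were at least 2-fold higher and 3 at least 2-fold lower in Dormant than in Primary luminal-like cells, beside 10.1% and 11.3% of all genes. Of the 8, Col3a1, Col6a3 and Sparc were below the Dormant T- or NK-like level, and Dcn, Col8a1, Fn1, Tnc and Lama5 above it. Recurrent over Primary gave 9 higher and 5 lower of 22 (all genes 5.91% and 7.87%), and Recurrent over Dormant 2 higher and 12 lower of 19 (all genes 11.6% and 13.5%). Of the 9, all but Dcn were below the Recurrent T- or NK-like level, such as Col3a1 at 5.65 CPM beside 33.4 CPM. Dcn was at 2.6 CPM beside 2.52 CPM. That level was not a sound gauge for every gene. With it subtracted, Recurrent over Primary had 2 higher and 9 lower, and Dormant over Primary 5 higher and 5 lower. Ptprc UMIs were found in 2.52% of Primary, 21.6% of Dormant and 3.25% of Recurrent luminal-like cells. The fibroblast marker list summed to 45.3 CPM in Primary (11 of 12 detected, Medag at 0), 84.1 CPM in Dormant (10, with Pdpn and Medag at 0), 773 CPM in Long-term dormant and 31.7 CPM in Recurrent (12 each). Its part in the stromal levels was not tested.

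The few vascular cells carried a smaller part of the Primary matrix RNA than the epithelium. Pericyte-like or smooth muscle-like cells held 3567 UMIs of the genes and endothelial-like cells 573, beside 6691 in basal-like and 6085 in luminal-like cells. UMIs of eGFP were found in 23.1% of the pericyte-like, 45.5% of the endothelial-like and 4.74% of the T- or NK-like cells of Primary. The part of tumor cell RNA in the vascular levels was not tested. The 26 pericyte-like or smooth muscle-like cells of Primary had Col4a1 at 2221 (2006 to 2454) CPM, Col4a2 at 1433, Sparc at 3832, Bgn at 2449.8, Col3a1 at 1456 and Col1a1 at 1028 (883 to 1189.5) CPM. The 11 endothelial-like cells had Col4a1 at 1838, Col4a2 at 1967 and Sparc at 5423 CPM, and no Col1a1 UMI, which allows up to 55.1 CPM. The 7 Primary fibroblast-like cells had Col1a1 at 2543 (2007 to 3178) CPM and were too few for a comparison with other stages. Pericyte-like cells numbered 6 in Dormant, 14 in Long-term dormant and 4 in Recurrent.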

How the data were processed

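RNA of single cells was counted in 1 library for each of 4 tumor stages. The deposited values are whole UMI counts per gene and cell, for which the submitters' processing notes list FastQC, the build mm10 and Cell Ranger 3.1.0; filters before deposit are not given in the sources used here. The antibody libraries of the study were not used here.

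The cell filter asked for 500 UMIs and 200 genes or more, with up to 20% of UMIs mitochondrial (4328, 3276, 6004 and 4685 from Primary to Recurrent). Scrublet marked 53, 0, 137 and 57 doublets, which were left out; with none in Dormant it did not work there, so a fixed rate was tried as well. Counts were scaled to 10000 per cell, 2000 variable genes without matrix genes gave 30 components, and cells were clustered with Leiden at resolution 1.0 (scanpy 1.11.5). Clusters were named from marker lists, at a score margin of 0.5 with at least 3 markers detected, and fibroblast-like cells were clustered again at resolution 0.5.

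Counts were summed per class and library. Log2 ratios of CPM used a prior of 0.5 counts and genes with at least 20 UMIs over both sums; a gene counted as different past 2-fold. Intervals are exact Poisson for levels and exact binomial for ratios, at 95%, and cover counting error only. The ratio code was tested on simulated counts. With 1 library per group there is no test. The genes named are all 39 members and, of the related lists, some of those past 2-fold. The related genes named are thus not a complete list. Members, lists and markers were chosen with earlier results of these data known. Totals, TMM factors (edgeR 4.0.16), filters, doublets, resolutions and mixed cells were varied. Promoters are from RefSeq.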

Additional observations from a re-analysis of the deposited data

Results flagged for a closer look

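Thbs1, which encodes thrombospondin 1, differed in direction between the epithelial classes. Dormant over Primary, its log2 ratio was -2.28 in luminal-like cells and 1.43 in basal-like cells, with both intervals away from 0. The difference between the classes was not tested, since each stage is 1 library, and the Dormant and Primary basal-like cells came from different clusters.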

How the results depend on the processing

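No paired analysis was possible because each stage has 1 library, and for the same reason no replicate could be left out. Over all alternatives run, 205 summary counts stayed within 1.5 times their reported value and 30 did not; of single-gene ratios, 2629 kept their value within the limit set, 352 moved and 19 changed sign. The causes were not tested.

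In fibroblast-like cells, Long-term dormant over Dormant had 2 of 38 members lower at a minimum of 5 UMIs and 6 of 35 higher with shared subsets weighted equally. Within cluster 5 alone it had 2 higher and 0 lower of 33. Recurrent over Dormant had 0 of 32 lower there and Recurrent over Long-term dormant 1 of 34 lower. Ratios that changed sign there were Col14a1 (-0.15) and Col18a1 (1.41) over Dormant, and Col4a1 (0.13) and Col18a1 (0.50) over Long-term dormant; within cluster 1, Col18a1 over Dormant was 0.088. Tnc in Recurrent over Long-term dormant was -0.59 without its top cell and -1.91 with doublets left out at a fixed rate.

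In luminal-like cells, a minimum of 5 UMIs gave 19 of 30 higher in Dormant over Primary. It gave 15 higher and 8 lower of 36 in Recurrent over Primary, and 25 of 35 lower in Recurrent over Dormant. A minimum of 100 gave 2 of 6 higher in Dormant over Primary and 3 higher and 2 lower of 11 in Recurrent over Primary. For Recurrent over Dormant it gave 1 higher and 5 lower of 10. The number of genes counted thus changed with the minimum, and the shares of all genes at these settings are not given here. Less the T- or NK-like level, Dormant over Primary had 5 higher and 5 lower of 14 (Col6a3 at -4.12). Recurrent over Primary then had 2 higher and 9 lower of 22 (Col1a1 -4.24, Col4a1 4.25, Fn1 -4.80, Tnc -6.39). That level is a poor gauge of free RNA for Col6a3 and Lamb3 in Dormant, and 1 cell gave 97.6% of it for Col1a1 and 100% for Tnc in Recurrent. In cells with eGFP, Dormant over Primary had 5 of 12 higher. Recurrent over Dormant had 7 of 18 lower, with Col6a3 at 0.10 and Fn1 at 0.67. The count for Recurrent over Dormant was also 7 of 18 without the top cell of each gene. Fn1 was 0.18 without its top cell, 0.31 without cells with a Ptprc or Pdgfra UMI and 0.35 with doublets kept.

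In basal-like cells, Dormant over Primary had 23 of 37 higher at a minimum of 5 UMIs and 6 of 17 at 100. It had 8 of 21 higher without cells with a Ptprc or Pdgfra UMI and 9 of 21 with doublets at a fixed rate. Long-term dormant over Dormant had 7 of 14 higher at 100 UMIs and 12 of 24 without cells with a Ptprc or Pdgfra UMI. It had 11 of 27 higher when clustered with matrix genes (Dpt -0.43), and 1 of 32 lower less the T- or NK-like level (Dpt -4.27). TMM scaling moved all ratios by 0.11 in fibroblast-like Long-term dormant over Dormant, 0.12 in luminal-like Recurrent over Dormant, and 0.13 and -0.25 in the basal-like comparisons. Equal weighting could not be run for Recurrent, nor the eGFP subset for Long-term dormant basal-like cells. The single-cluster, fixed-rate doublet and Ptprc or Pdgfra alternatives were chosen after seeing the data.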
